A study of Mus musculus with 12 samples.

Results

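The genes of the class II major histocompatibility complex (MHC II) were described across the cell classes of mouse paw epidermis, with most attention to Langerhans cells (LCs), the resident antigen-presenting cells of that layer. The members were picked out by gene symbol, with earlier results of these data known. They were H2-Aa, H2-Ab1, H2-Eb1, H2-DMa, H2-DMb1, H2-DMb2, H2-Oa, H2-Ob, Cd74 and Ciita, which are 10 of the 32285 genes in the deposited count tables. The study asked whether LCs contribute to neuropathic pain, and used mice on a high-fat diet (HFD) as a model of painful diabetic neuropathy. Glabrous hind paw epidermis of wild-type C57BL/6J mice was profiled by 10x Genomics 3′ single-cell RNA sequencing after 10 weeks on a regular diet (RD, 11% fat) or the HFD (42% fat, EnvigoTD88137). The mice entered the diets at 6-8 weeks of age and were 16-18 weeks old at harvest, and no drug was given. Each of the 4 groups, males and females on either diet, was represented by 3 libraries. No group carried a transgene or a deletion, so the groups differed by diet and sex alone as far as the labels say.

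MHC II molecules show peptides from engulfed material to CD4+ T cells. An alpha and a beta chain (H2-Aa with H2-Ab1, and H2-Eb1 as a beta chain of the second isotype) assemble with the invariant chain, encoded by Cd74, which fills the groove and steers the complex to endosomes. There the chaperone H2-DM, a dimer of H2-DMa with H2-DMb1 or H2-DMb2, exchanges the last invariant chain fragment for peptide, and H2-DO, made of H2-Oa and H2-Ob, restrains H2-DM. Ciita is the transactivator that switches the whole group on. The C57BL/6 strain makes no functional alpha chain of the second isotype, and H2-Ea was not analysed here. LCs carry MHC II at rest, and LCs that leave for lymph nodes switch on the chemokine receptor Ccr7.

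The 8 H2 genes lay on chromosome 17 of GRCm38, from H2-Oa (chr17:34092340-34095234) and H2-DMa (chr17:34119541-34139101) through H2-DMb2 (chr17:34143307-34151555), H2-DMb1 (chr17:34153072-34160230), H2-Ob (chr17:34238903-34254414) and H2-Ab1 (chr17:34257689-34269419) to H2-Aa (chr17:34282744-34287823) and H2-Eb1 (chr17:34305867-34316674). H2-Aa was on the minus strand and the other 7 on the plus strand. Ciita was on chromosome 16 (chr16:10480059-10528418, plus strand). CIITA has no DNA-binding domain of its own and docks on proteins bound at an X box, recognised by the RFX complex, and a Y box, recognised by NF-Y. The promoters of 6 members are shown so that the boxes can be compared between the chain, H2-DO and H2-DM genes. Each line gives 80 bases, from 110 to 31 bases before the RefSeq start site in GRCm38.p6, read 5′ to 3′ on the gene's own strand. Capitals mark the X-box core GCAAC and the Y-box core ATTGG wherever a script found them on either strand.
H2-Aa, chr17:34287854-34287933, minus strand: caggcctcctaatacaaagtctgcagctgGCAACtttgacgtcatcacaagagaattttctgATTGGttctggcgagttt
H2-Eb1, chr17:34305757-34305836, plus strand: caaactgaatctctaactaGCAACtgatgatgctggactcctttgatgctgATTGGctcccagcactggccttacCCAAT
H2-Oa, chr17:34092269-34092348, plus strand: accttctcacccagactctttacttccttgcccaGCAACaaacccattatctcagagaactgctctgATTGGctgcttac
H2-Ob, chr17:34238795-34238874, plus strand: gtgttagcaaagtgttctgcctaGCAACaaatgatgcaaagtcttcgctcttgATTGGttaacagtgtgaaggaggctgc
H2-DMb1, chr17:34153081-34153160, plus strand: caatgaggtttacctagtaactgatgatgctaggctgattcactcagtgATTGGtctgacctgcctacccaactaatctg
H2-DMb2, chr17:34145139-34145218, plus strand: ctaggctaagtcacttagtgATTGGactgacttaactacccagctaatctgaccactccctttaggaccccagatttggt

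H2-Aa, H2-Eb1, H2-Oa and H2-Ob held both cores in 1 direction with 10 to 35 bases between them, and the gaps were 28, 27, 28 and 25 bases. H2-DMb1 and H2-DMb2 held the Y-box core without that X-box core in front of it. Only exact matches were searched. The H2-DMb1 line holds gtaac before tgatgatg, where the H2-Eb1 line holds GCAAC, a difference of 1 letter. The H2-DMb2 line begins 110 bases before the start, and its Y-box core lies at 90, so little sequence in front of it is shown. Whether these promoters hold an X box of other letters was not tested. RefSeq promoters of 300 bases (250 before and 50 after the start) were found for 7 of the 10 members in 8 entries, because H2-DMa had 2, and neither entry of H2-DMa held the pair. The pair was present in 4 of the 8 entries, against 401 of 32851 promoters of the same length (1.22%). The single cores were common, GCAAC in 35.2% and ATTGG in 37.4% of promoters, the CCAAT and GTTGC strands included. The search for member promoters left out Cd74, and H2-Ab1, Ciita and Cd74 are named only. A match is a stretch of letters and no measurement of binding.

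The libraries held 134449247 to 194673581 UMIs (unique molecular identifiers, each standing for 1 captured transcript) and 7370 to 16254 barcodes. After the study's filters on genes and mitochondrial reads, 6226 to 15193 cells remained per library. Cells were clustered within each sex with the 10 members left out, so that no member helped to define a class. LC-like cells, named from Cd207, Mfge8, Tyrobp and 7 further markers, numbered 1369 in males (133 to 442 per mouse) and 2172 in females (283 to 474 per mouse). They carried Cd207, the gene of the LC lectin langerin, at 2272 to 4130 CPM (UMIs of a gene per 1000000 UMIs of the class in that library) in every library. Of the markers of other cells with MHC II, some were at or near 0 among them: the B-cell genes Cd79b and Ms4a1 had no UMI in all 12 libraries, Cd79a stayed at or below 1.31 CPM, and Xcr1 and Clec9a of type 1 dendritic cells stayed below 0.669 CPM. Of the macrophage genes, Ly6c2 was at 0 in all 12 libraries, while C1qa lay between 100.2 and 580 CPM, C1qb between 10.5 and 147 CPM and Adgre1 between 18.3 and 85.0 CPM. The macrophage list summed to 151 to 763 CPM over all libraries. The type 2 dendritic cell genes Cd209a (median 8.36 CPM) and Mgl2 (0.404 to 12.9 CPM) were found in all 12 libraries, as was Bst2 (23.4 to 70.8 CPM) of the plasmacytoid list. Several of these levels lie above those of H2-Oa and H2-Ob below, and their part in the members' levels was not tested. Keratin genes were present in LC-like cells of every library, and 22.6% of male and 16.7% of female LC-like cells carried a keratin share of UMIs above the keratinocyte median divided by 5. Those cells held 4596242 of 8929119 UMIs of LC-like cells in males and 6492096 of 18305102 in females. They therefore weigh more in summed counts than in numbers of cells. No doublet caller was run, the part of shared droplets in these keratin-high cells was not tested, and the comparisons of states are also given for low-keratin cells only. Pairs of libraries shared 15 to 70 barcodes. The count tables of males were made with Cell Ranger 6.1.0 and those of females with 7.2.0 by their headers, so sex and counting software cannot be told apart, and levels are compared within a sex. In summed counts, fewer expressing cells and less RNA per cell cannot be told apart.

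LC-like cells were split by genes outside the group. A cell with at least 1 UMI of Ccr7 was called Ccr7-positive, otherwise a cell with at least 1 UMI of Mki67 or Top2a was called cycling, otherwise a cell with at least 5 UMIs of Ccl3 and Ccl4 together was called chemokine-high, and the rest were called resting. This gave 958 resting, 38 Ccr7-positive, 323 cycling and 50 chemokine-high cells in males, and 1501, 156, 464 and 51 in females. Among these cells, 26 in males and 76 in females met more than 1 criterion and went to the first that applied. The male Ccr7-positive state held only 2 to 13 cells per mouse, so its levels rest on few cells. Library medians of UMIs per cell were 2715.5 to 5625 in resting and 5120 to 8059.5 in cycling cells of males. In females they were 5598.5 to 7306 and 7258 to 9132. Ccr7-positive cells had medians of 2579 to 12850.5 in males and 6202 to 9067 in females, and chemokine-high cells 2890.5 to 5883.5 and 6578 to 8836. A rule of at least 1 UMI is met more easily by deeper cells, and the part of depth was not tested. At least 1 Ccr7 UMI was found in 2.78% of male and 7.18% of female LC-like cells, against 0.0413% and 0.0502% of keratinocytes (library medians of 2835.5 to 5625 and 5897 to 7820 UMIs per LC-like cell, and of 6703.5 to 15288 and 9009 to 12553.5 per keratinocyte). The cycling criterion was met by 24.4% and 24.0% of LC-like cells and by 30.7% and 30.1% of keratinocytes, a class with a dividing basal layer of its own.

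Cd74 was the most abundant member in LC-like cells of all 12 libraries. In resting LC-like cells its level was 15582, 17935 and 20706 CPM in the male RD libraries and 21602, 15216 and 19778 CPM in the male HFD libraries. In females it was 19827, 18027 and 16281 CPM on RD and 17447, 18840 and 17474 CPM on HFD. The diet groups overlapped in both sexes. H2-Aa, H2-Ab1, H2-Eb1 and Cd74 together took a median of 5.06 to 5.83% of all UMIs of a male LC-like cell and 4.67 to 5.21% of a female one, over the medians of single libraries. In keratin-high cells these medians were 1.08 to 1.59% in males and 1.44 to 1.72% in females. In low-keratin cells they were 5.38 to 6.22% and 4.89 to 5.45%. Among 1369 male LC-like cells 32 had no UMI of these 4 genes, and among 2172 female cells 46.

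The chains that form the peptide groove came next. UMIs were counted at the 3′ end, 1 per captured molecule, so no length correction was made. Whether genes differ in the share of their reads that was counted was not tested, so the order between genes is that of counted UMIs. In LC-like cells H2-Aa was at 5894 ± 1031 CPM (SD, n = 6) in males and 8525 ± 620 CPM in females, H2-Ab1 at 7697 ± 1500 and 6180 ± 505 CPM, and H2-Eb1 at 5477 ± 1180 and 7545 ± 586 CPM. The order of the chains differed between the sexes: H2-Ab1 lay above H2-Aa in all 6 male libraries, with 0.732 to 0.822 H2-Aa UMIs per H2-Ab1 UMI, and below it in all 6 female libraries, with 1.30 to 1.46. The means of H2-Aa and H2-Eb1 differed by less than 1 between-library SD in males. That SD leaves out that both genes were read in the same libraries. In resting cells H2-Aa lay above H2-Eb1 in all 6 male libraries. H2-Aa was there at 35.3 to 38.4% of the Cd74 UMIs on RD, against 31.2 to 34.1% for H2-Eb1. On HFD the values were 36.9 to 38.4% against 33.7 to 35.5%. Levels were higher in low-keratin cells, at 9727 and 11371 CPM for H2-Aa, 12694 and 8290 CPM for H2-Ab1 and 8950 and 10068 CPM for H2-Eb1 in males and females. The 3 chains and Cd74 together took 3.51% of all summed UMIs in male and 3.86% in female LC-like cells, and 5.74% and 5.15% in low-keratin cells, so that the order of the sexes for this sum depended on the keratin-high cells. Sex and the counting software version cannot be told apart in that order.

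The H2-DM chaperone genes stood about an order of magnitude lower. H2-DMa was at 1037 ± 219 CPM in males and 707.5 ± 74.1 CPM in females (SD, n = 6), and H2-DMb1 at 633.2 ± 170 and 480.8 ± 46.7 CPM. The second beta chain gene, H2-DMb2, had 154.5 ± 43.1 and 198.1 ± 27.6 CPM. H2-DMb1 and H2-DMb2 are close copies: 13.0% of all 91-base windows of H2-DMb1 transcripts were also found in H2-DMb2, and 15.6% of those in its last 500 bases, and 12.1% and 1.2% of those of H2-DMb2 were found in H2-DMb1 or Zw10, so the split of UMIs between these 2 genes is uncertain. Ciita was at 103.8 ± 24.9 CPM in males and 123.2 ± 17.3 CPM in females, below every other member but H2-Oa and H2-Ob.

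The H2-DO genes had the lowest levels of the members in LC-like cells. H2-Oa was at 7.12 ± 3.40 CPM in male and 3.17 ± 0.751 CPM in female LC-like cells, and H2-Ob at 6.39 ± 3.14 and 4.43 ± 0.734 CPM. These levels rest on 56 and 52 UMIs in all male LC-like cells and on 59 and 80 in all female ones. Their ranges over libraries overlapped, at 3.48 to 12.7 CPM for H2-Oa and 2.48 to 10.6 CPM for H2-Ob in males and at 2.15 to 4.02 and 3.22 to 5.23 CPM in females. In the main fits with at least 10 cells per library, both fell under the filter on low counts by diet in resting and cycling cells. The same held between a state and resting cells, so neither was tested there. Fits with 9 members tested, such as Ccr7-positive against resting cells of females on low-keratin cells, took in H2-Oa or H2-Ob.

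**Figure D1:**
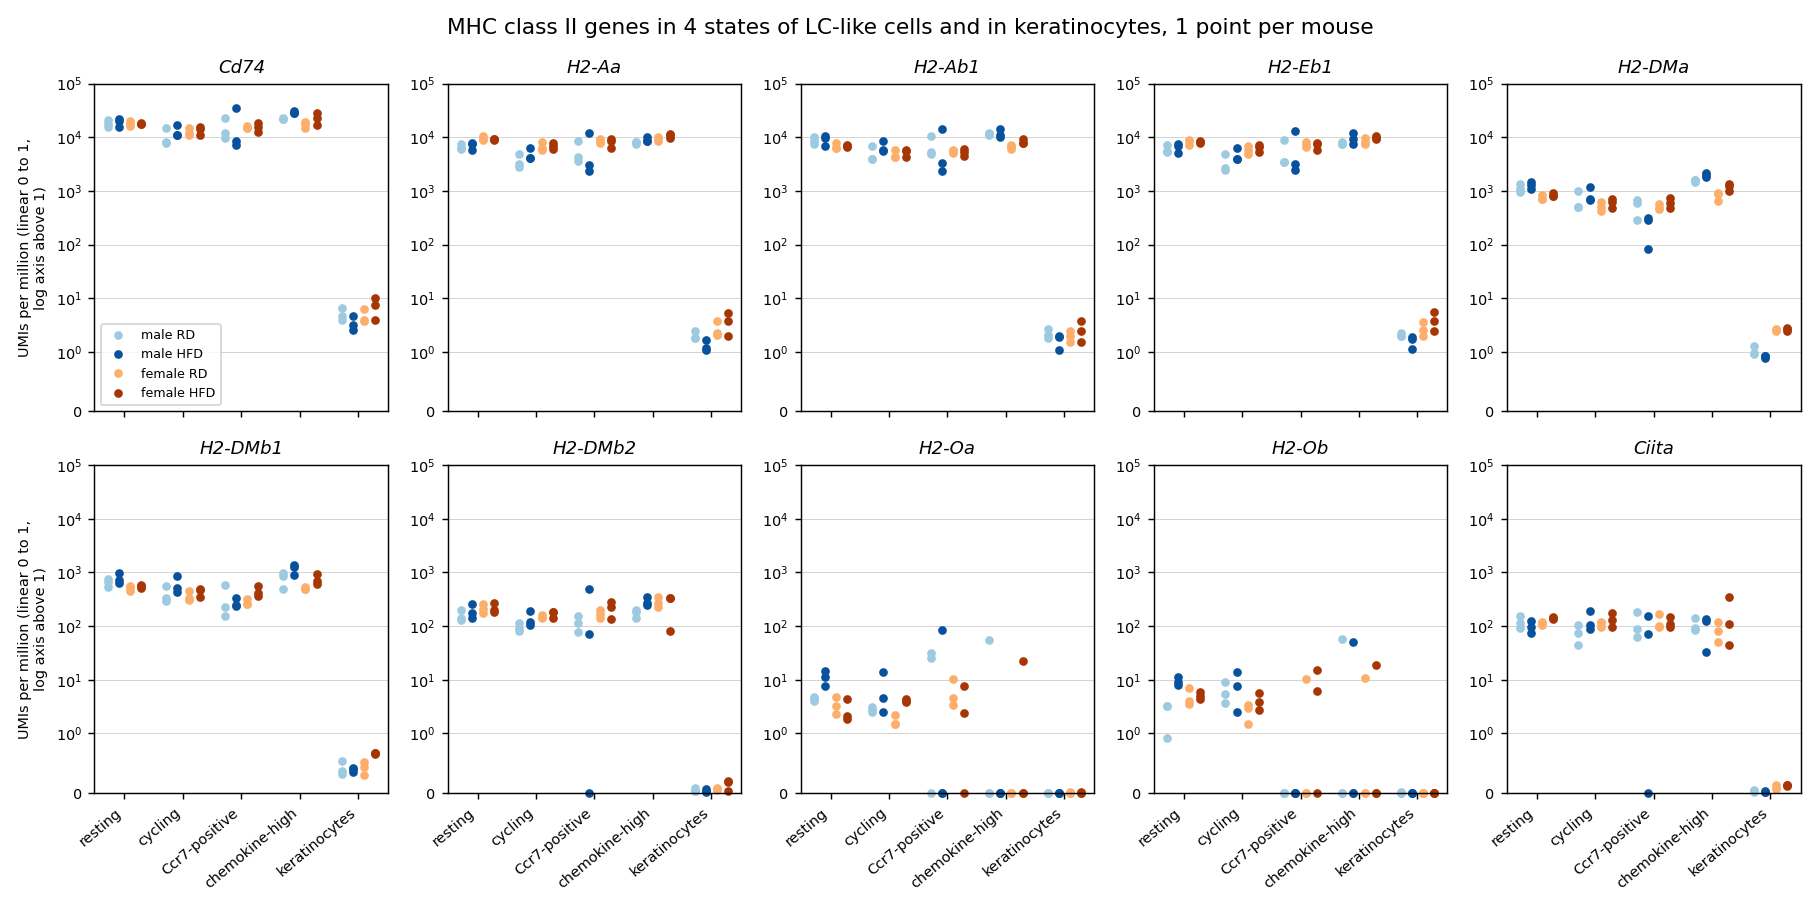
Level of each member (CPM, linear from 0 to 1 and log above) in the 4 states of LC-like cells and in keratinocytes, with 1 point per mouse coloured by sex and diet. In resting cells Cd74, H2-Aa, H2-Ab1 and H2-Eb1 lie between 5122 and 21602, H2-Oa and H2-Ob at or below 14.3, and in keratinocytes no member exceeds 10.3.

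In keratinocytes, Cd74, the 3 chain genes and H2-DMb2 were found at about the level of LC genes that these cells should lack. Keratinocytes held Cd74 at a median of 0.0167% of the level in low-keratin LC-like cells in males and 0.0247% in females (n = 6 libraries each). The LC genes Cd207 and Tyrobp, which keratinocytes should lack, were found there at 0.0149% and 0.0166% in males and at 0.0254% and 0.0209% in females. The peptide-binding chain genes fell in the same range, between 0.0155% (H2-Ab1) and 0.0220% (H2-Eb1) in males and between 0.0257% (H2-Aa) and 0.0298% (H2-Eb1) in females. In CPM this was 2.50 to 6.62 for Cd74 in male and 3.72 to 10.3 in female keratinocytes. No UMI of H2-Aa, H2-Ab1, H2-Eb1 or Cd74 was found in 93.2% of 60585 male and 89.8% of 61770 female keratinocytes. T-like cells, which had fewer UMIs (library medians of 953 to 2063 in males and 1970 to 4403 in females), lacked all 4 genes in 96.4% of 193 male and 88.8% of 286 female cells. Their Cd74 rested on 4 UMIs in males and 41 in females, and no other member had more than 5 in either sex. In females Cd74 was found in 10.1% of T-like cells (5.28% after thinning each cell to 1000 UMIs), at a median of 0.193% of its LC-like level, while Cd207 had no UMI and Tyrobp 2.

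H2-DMa and H2-DMb1 lay above that background in keratinocytes, and H2-DMb2 did not, at 0.0171% of its LC-like level in males and 0.0275% in females. H2-DMa was at 0.0540% of its LC-like level in males and 0.281% in females, above the 0.0149% and 0.0254% of Cd207. In CPM, H2-DMa in keratinocytes was 0.982, 1.26 and 0.968 in male RD, 0.903, 0.927 and 0.934 in male HFD, 2.69, 2.46 and 2.61 in female RD and 2.65, 2.77 and 2.48 in female HFD libraries. H2-DMb1 was at 0.0391% and 0.0895% of its LC-like level. When only keratinocytes without a UMI of Cd207, Tyrobp and Fcer1g were summed (60039 male and 60840 female cells), H2-DMa stood at 0.0521% and 0.272% and H2-DMb1 at 0.0299% and 0.0727%, while Cd74 stood at 0.00820% and 0.0157%. Mfge8, another LC marker, was left out of that filter after its level was seen, because it was at 26.2 CPM in basal keratinocytes of males and 16.7 CPM in those of females. Ciita was at 0.0141% of its LC-like level in male keratinocytes, on 21 UMIs, and at 0.0664% in female ones, on 86 UMIs. The female value lay above the 0.0254% of Cd207. H2-Oa and H2-Ob were at no more than 0.0165 CPM in any keratinocyte library.

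Among keratinocyte classes, H2-DMb1 was highest in the cells named migratory from Krt79, Lrig1, Sema3e, Cst6 and Defb6. Its level there was 2.46 ± 0.930 CPM in males and 2.35 ± 0.942 CPM in females (SD, n = 6), against 0.545 ± 0.133 and 0.635 ± 0.215 CPM in basal and 0.139 ± 0.0635 and 0.274 ± 0.137 CPM in suprabasal or spinous cells. Migratory lay above basal and basal above suprabasal in 6 of 6 libraries of either sex, on 68 male and 79 female UMIs in migratory cells. H2-DMa was higher in basal than in suprabasal cells in 6 of 6 libraries of either sex, at 1.27 ± 0.183 against 0.711 ± 0.144 CPM in males and 3.03 ± 0.386 against 1.94 ± 0.257 CPM in females. Cd74 showed no such order: basal lay above suprabasal in 2 of 6 male and 1 of 6 female libraries. H2-DMb2 had no UMI in migratory cells of males. In terminally differentiated cells Cd74 stood at 0.112% of its LC-like level in males and 0.161% in females, and Cd207 at 0.0722% and 0.132%, so that the background was higher there. These classes come from clusters and are described with no test. Keratinocytes without a class name numbered 1642 in males and 13519 in females. A cluster with Il34, Mycl, Chchd10 and Notch3 among its leading genes was named suprabasal or spinous in males (18731 cells). Its counterpart in females (13060 cells) got no name, so the suprabasal class is not the same set of cells in the 2 sexes.

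**Figure D2:**
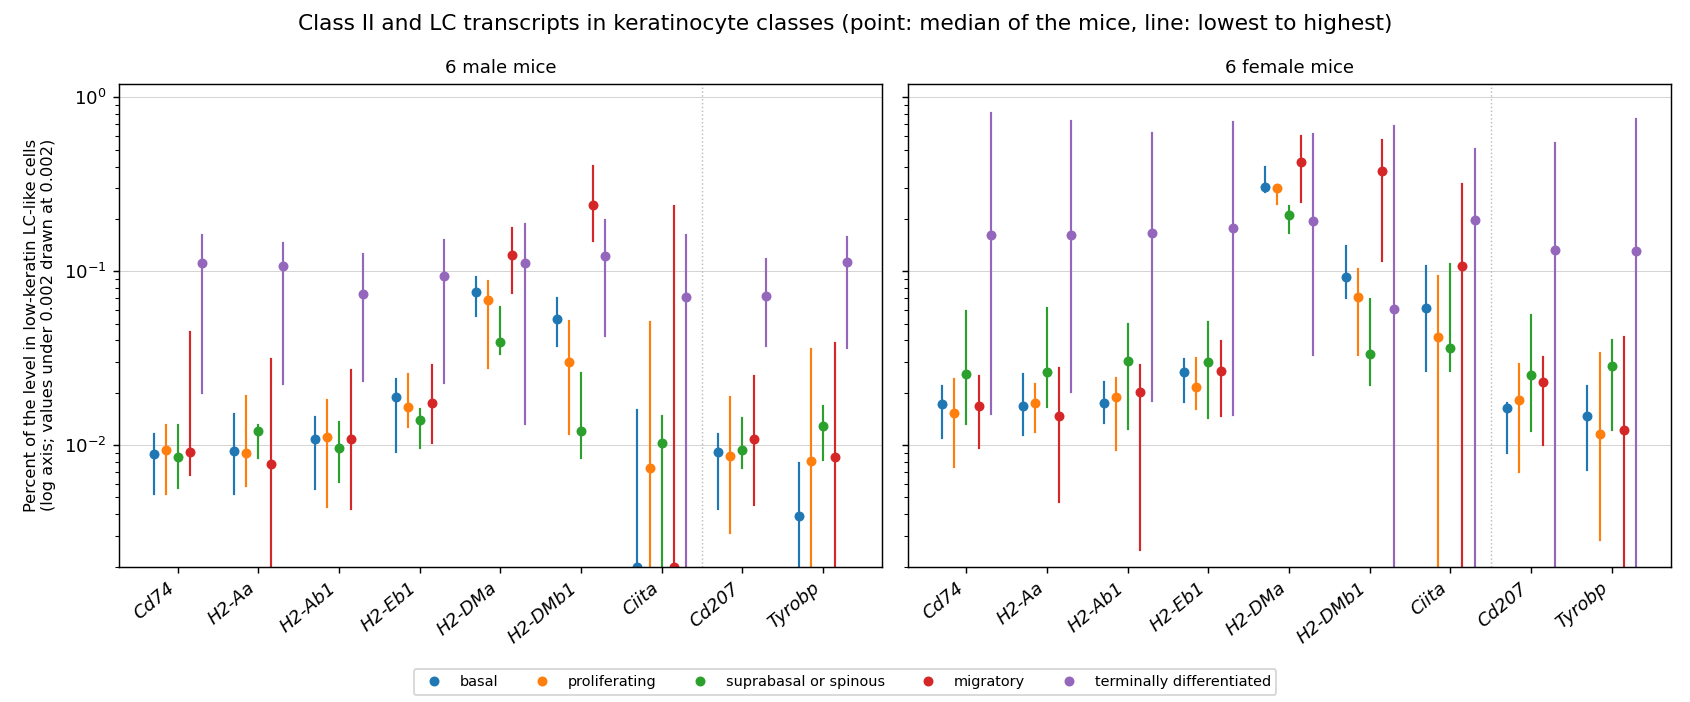
Level of 7 members and of Cd207 and Tyrobp in 5 keratinocyte classes as a percent of the level in low-keratin LC-like cells (log axis), with points at the median of 6 mice and lines from the lowest to the highest. The medians of H2-DMa in all 5 classes, and of H2-DMb1 in migratory and basal cells, lie above those of Cd207, whereas Cd74, H2-Aa, H2-Ab1 and H2-Eb1 lie near it.

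Cycling LC-like cells held less of 7 members than resting LC-like cells of the same mice, all but Ciita and the untested H2-Oa and H2-Ob. In males Cd74 was 15582, 17935 and 20706 CPM in resting against 7973, 8256 and 14728 CPM in cycling cells of the RD libraries, and 21602, 15216 and 19778 against 16888, 10954 and 11139 CPM in the HFD libraries. In females it was 19827, 18027 and 16281 against 14653, 11940 and 11162 CPM on RD, and 17447, 18840 and 17474 against 10893, 13992 and 15685 CPM on HFD. Cycling cells lay below resting cells in all 12 libraries. With the library as a block, edgeR's quasi-likelihood test with Benjamini-Hochberg adjustment over all genes called 7 of the 8 members tested lower in males, where 9.29% of 7662 genes were called lower and 9.03% higher. In females it also called 7 of 8 lower, where 5.16% of 10361 genes were lower and 7.27% higher. Cd74 fell to 0.577 of its resting level in males (log2 fold change −0.79 ± 0.08, SE, adjusted p = 1.31e-06) and to 0.687 in females (−0.54 ± 0.07, adjusted p = 3.85e-05).

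The chain genes fell by 0.74 to 0.82 on the log2 scale in males and 0.50 to 0.53 in females. H2-DMa fell by 0.82 and 0.59, H2-DMb1 by 0.68 and 0.51, and H2-DMb2 by 0.67 and 0.50. Ciita was not called: its log2 difference was −0.32 ± 0.18 (SE, adjusted p = 0.243, 95% interval −0.70 to 0.06) in males and −0.14 ± 0.11 (adjusted p = 0.480, −0.37 to 0.09) in females by the same edgeR fit. The median over the members tested was −0.76 in males and −0.51 in females, beside 0.01 and −0.01 over all genes tested.

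Other LC genes and keratins moved with that difference. Cd207 fell by 0.76 in males and 0.42 in females, Tyrobp by 0.88 and 0.64, and Fcer1g by 0.83 and 0.63, while Krt5 rose by 1.82 and 1.41 and Krt14 by 1.65 and 1.12 (log2, all called). Keratin-high cells made up 41.5% of cycling against 17.1% of resting cells in males, and 30.2% against 12.5% in females. Their weight in the summed UMIs was larger. Low-keratin cells held only 920215 of 3153315 UMIs of cycling and 3077582 of 5246755 UMIs of resting cells in males. In females they held 2440939 of 5135817 and 8137983 of 11331480 UMIs. With low-keratin cells only, 5 of 8 members were called lower in either sex, beside 2.90% of 4761 genes in males and 1.61% of 8036 in females. The drop of Cd74 then shrank to 0.26 in males and 0.24 in females, H2-Aa fell by 0.25 and 0.22, H2-Ab1 by 0.17 and 0.18, H2-Eb1 by 0.23 and 0.19, and H2-DMa by 0.26 and 0.26. H2-DMb1 (−0.14 and −0.18) and H2-DMb2 (−0.20 and −0.24) were not called there, and Ciita stood at 0.32 and 0.25 (adjusted p = 0.249 and 0.241). Tyrobp also fell in low-keratin cells, by 0.30 and 0.31.

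**Figure D3:**
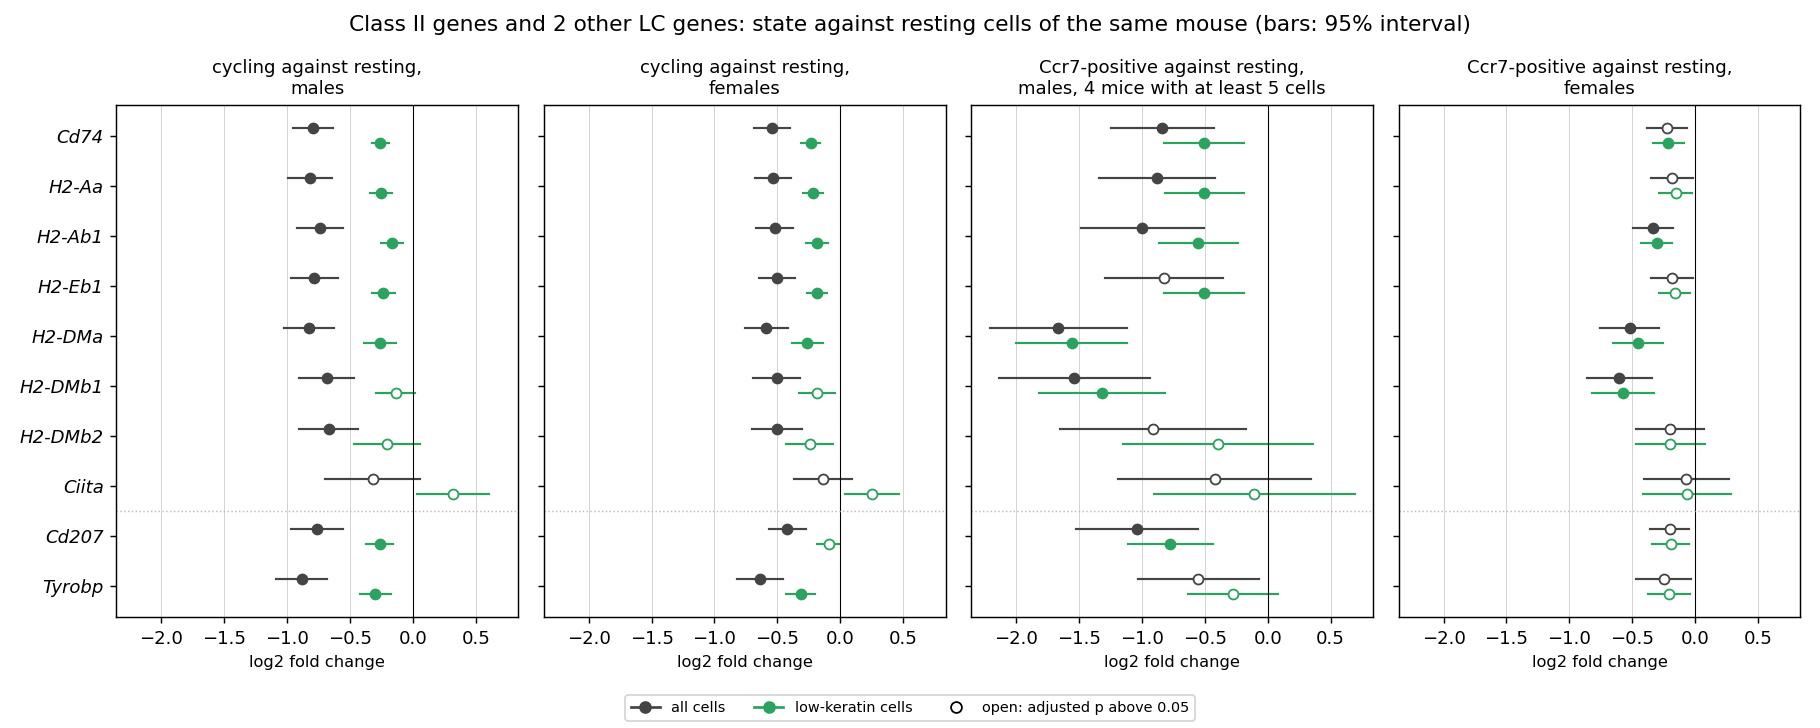
Log2 fold change of 8 members, Cd207 and Tyrobp between cycling or Ccr7-positive and resting LC-like cells of the same mice, with 95% intervals from edgeR, for all cells and low-keratin cells (open points: adjusted p above 0.05, and low-keratin Ccr7-positive cells of males rest on 3 mice). In cycling cells the intervals of 7 members lie below 0 in both sexes for all cells and those of Ciita span 0, and in Ccr7-positive cells H2-DMa and H2-DMb1 lie lowest.

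Ccr7-positive LC-like cells of females held less H2-DMa, H2-DMb1 and H2-Ab1 than resting cells of the same mice. H2-DMa was 482, 459 and 568 CPM on RD and 608, 485 and 737 CPM on HFD, against 825, 695 and 699 and then 814, 912 and 813 CPM in resting cells of the same libraries. It was lower in 6 of 6 libraries. H2-DMb1 was 323, 260 and 262 CPM on RD and 407, 357 and 551 CPM on HFD, against 556, 514 and 454 and then 567, 587 and 524 CPM, lower in 5 of 6 libraries. In all, 3 of 8 members were called lower by edgeR, beside 1.70% of 9074 genes called lower and 3.21% called higher. H2-DMb1 fell to 0.658 of its resting level (log2 −0.60 ± 0.12, SE, adjusted p = 0.00533), H2-DMa to 0.697 (−0.52 ± 0.11, adjusted p = 0.00779) and H2-Ab1 to 0.792 (−0.34 ± 0.08, adjusted p = 0.0111). Cd74 stood at −0.22 ± 0.08 (adjusted p = 0.131), H2-Aa and H2-Eb1 at −0.18, H2-DMb2 at −0.20 and Ciita at −0.07, none of them called.

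These calls rest partly on cells that also met another criterion. Without such cells 0 of 9 members were called, and the log2 differences were −0.47 for H2-DMb1 (adjusted p = 0.107), −0.39 for H2-DMa (0.196) and −0.24 for H2-Ab1 (0.430). Mki67, one of the genes that set the cycling state, was 9.45 higher on the log2 scale in Ccr7-positive than in resting cells, since resting cells have none by definition. Without female RD replicate 1 only H2-DMb1 was called, with H2-DMa at an adjusted p of 0.0558 and H2-Ab1 at 0.0695. With low-keratin cells only, 4 of 9 members were called lower, beside 2.16% of 7442 genes, with H2-DMb1 at −0.57, H2-DMa at −0.45, H2-Ab1 at −0.31 and Cd74 at −0.21 (adjusted p = 0.0282). Fcer1g, an LC gene outside the group, was also lower (−0.55, called), and Cd207 (−0.20) and Tyrobp (−0.25) were not called.

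In males only RD replicate 1 held the minimum of 10 Ccr7-positive cells, so the comparison was made on the 4 libraries with at least 5, a minimum set after the cell numbers were seen. H2-DMa fell to 0.316 (log2 −1.66 ± 0.27, SE, adjusted p = 0.00024) and H2-DMb1 to 0.344 (−1.54 ± 0.29, adjusted p = 0.00236) of the resting level. In these libraries H2-DMa was 289, 668 and 587 CPM on RD and 283 CPM in HFD replicate 1, against 975, 1078, 1321 and 1493 CPM in resting cells. H2-Ab1 fell by 1.00, H2-Aa by 0.88 and Cd74 by 0.84, so that 5 of 8 members were called lower, beside 0.924% of 5304 genes. H2-Eb1 stood at −0.83 (adjusted p = 0.0575), Fcer1g fell by 1.65 and Cd207 by 1.04, and the median of all genes was −0.12. Cd74 was 9624, 12262 and 22677 CPM on RD and 7320 CPM in HFD replicate 1, lower than in resting cells in 3 of 4 libraries. Ccr7-positive cells that met no other criterion were 11, 7 and 3 in the RD libraries and 2 in HFD replicate 1. Only 2 libraries kept at least 5, so the part of the other cells was not tested in males. Low-keratin cells held 41121 of 124486 UMIs of this state in RD replicate 1, 16929 of 38902 in RD replicate 2 and 26390 of 56556 in HFD replicate 1. The calls depended on single libraries. Without RD replicate 2 or HFD replicate 1 only H2-DMa was called, and without RD replicate 1 only H2-DMa and H2-DMb1 were. With low-keratin cells, on 3 libraries, 6 of 8 members were called lower, beside 2.94% of 3506 genes, with H2-DMa at −1.56, H2-DMb1 at −1.32 and Cd74 at −0.51.

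Chemokine-high cells did not differ detectably from resting cells in any member. At least 10 chemokine-high cells were present in 2 male and 3 female libraries, all on RD, and 0 of 8 members were called in either sex, beside 1.07% of 5806 genes in males and 1.41% of 8033 in females. No member had an unadjusted p under 0.05 in either sex, and DESeq2 also called 0. The interval of Cd74 was −0.29 to 0.62 in males and −0.26 to 0.17 in females on the log2 scale. For H2-DMa it was −0.10 to 0.79 and −0.21 to 0.48. With at least 5 cells, which took in 6 libraries of either sex, 0 of 9 members were called in males and 0 of 8 in females, and Cd74 stood at 0.25 and −0.05. The 4 most abundant members together took a larger share of UMIs in chemokine-high than in resting cells in 6 of 6 male libraries (4.88 to 6.66% against 3.28 to 4.77%) and in 4 of 6 female ones. Keratin-high cells were 6.00% of chemokine-high and 17.1% of resting cells in males, and with low-keratin cells Cd74 stood at −0.08 there and at −0.22 in females.

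Within a library, the balance between chaperone and invariant chain was read as the UMIs of H2-DMa and H2-DMb1 per 100 Cd74 UMIs, a ratio that does not depend on the total of all other transcripts. It was chosen after the values above were seen and is described with no test. In females it was 5.97 ± 0.951 in Ccr7-positive cells (SD, n = 6, range 4.80 to 7.10) against 7.38 ± 0.532 in resting cells (6.71 to 7.96), and it was lower in 6 of 6 libraries. With low-keratin cells it was 6.04 against 7.34 and without cells that met more than 1 criterion 5.95 against 7.38, again lower in 6 of 6 libraries. In males it was 6.12 ± 1.02 against 10.3 ± 0.845 (n = 4 libraries), lower in 4 of 4. Cycling cells stood at 10.6 ± 0.783 against 10.4 ± 0.811 in males and 7.32 ± 0.654 against 7.38 ± 0.532 in females. In chemokine-high cells it was 10.8 in males, above resting cells in 3 of 6 libraries, and 8.15 ± 0.838 in females, above resting cells in 6 of 6, on libraries with at least 5 such cells. The UMIs of H2-Aa, H2-Ab1 and H2-Eb1 per 100 Cd74 UMIs were 136 in both Ccr7-positive and resting cells of females.

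By diet, the same measure in resting cells was 9.70, 9.80 and 10.0 in male RD and 11.5, 11.4 and 10.2 in male HFD libraries. In females it was 6.97, 6.71 and 7.08 on RD and 7.92, 7.96 and 7.65 on HFD. The diet groups did not overlap in either sex, although in all LC-like cells of males they met at 10.0. In Ccr7-positive cells of females it was 5.41, 4.80 and 5.18 on RD against 6.62, 6.68 and 7.10 on HFD, and in cycling cells the groups did not overlap in females (6.07 to 7.38 against 7.54 to 7.98) and overlapped in males. No share over all genes is given for those states, so they are descriptions with no test. For single genes per Cd74 UMI in resting cells, H2-DMa alone of the 7 members other than Cd74 that passed the filter was higher on HFD without overlap in both sexes, beside 0.382% of 6543 genes. It was 6.01 to 6.38 on RD and 6.56 to 7.23 on HFD in males, and 3.85 to 4.29 and 4.65 to 4.84 in females, per 100 Cd74 UMIs. The chain genes per 100 Cd74 UMIs overlapped between diets in resting cells of both sexes. In other states of males the sum of the 3 chain genes did not always overlap. It was 111.7 to 123.0 on RD and 123.2 to 126.0 on HFD in cycling cells. In chemokine-high cells it was lower on HFD, at 119.0 to 124.2 on RD and 91.1 to 118.8 on HFD. In females that sum overlapped in every state.

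**Figure D4:**
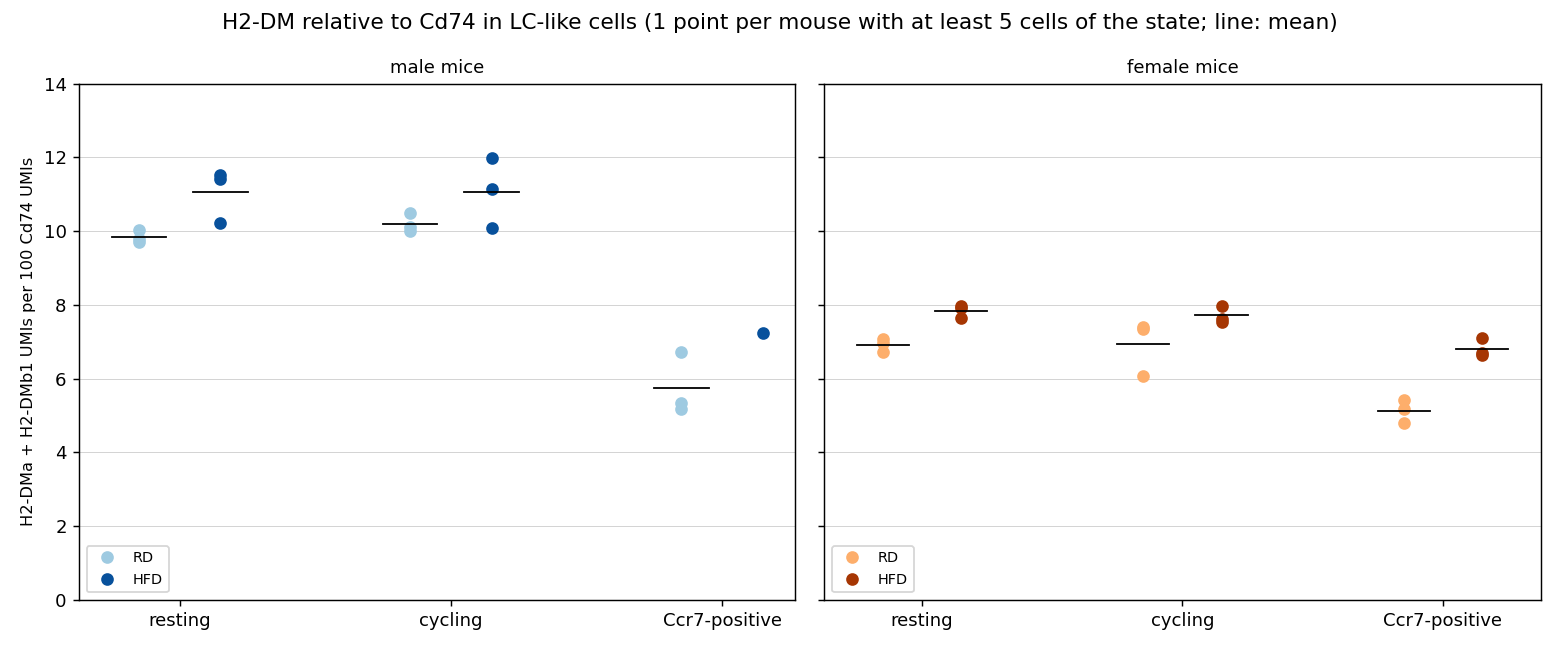
UMIs of H2-DMa and H2-DMb1 per 100 Cd74 UMIs in each library by LC state, split by sex and coloured by diet, with 1 point per mouse with at least 5 cells of the state and a line at the mean. Ccr7-positive cells lie below resting cells in all 6 female libraries, and the 3 HFD libraries lie above the 3 RD libraries in resting cells of either sex.

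No member passed the test between diets in any LC-like class or in keratinocytes. In LC-like cells of males 0 of 9 members tested were called between HFD and RD, beside 0% of 8311 genes (452 at an unadjusted p under 0.05, and 4 genes by DESeq2). In females 0 of 9 were called, beside 0.056% of 10717 genes. The fold change of Cd74 was 1.08 in males (95% interval 0.808 to 1.45) and 0.986 in females (0.824 to 1.18), by edgeR with 3 libraries a group. The intervals of H2-Aa were 0.850 to 1.46 in males and 0.801 to 1.14 in females, and those of H2-DMa 0.895 to 1.55 and 0.938 to 1.34. In males 8 of 9 members had a fold change above 1 and in females 5 of 9, with medians of 0.21 and 0.02 on the log2 scale beside 0.00 and −0.00 over all genes, of which 50.1% had a fold change above 1 in males. Keratin-high cells made up 24.7% of male LC-like cells on RD and 19.1% on HFD, and 17.0% and 16.3% in females. With low-keratin cells only, 5 of 8 members stood above 1 in males and 4 of 9 in females, with medians of 0.03 and −0.01.

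In resting cells 0 of 8 members were called in males, beside 0% of 6626 genes (374 at an unadjusted p under 0.05, and 2 by DESeq2), and 0 of 8 in females, beside 0.13% of 9211 genes. Ciita in resting cells of females was 118, 104 and 112 CPM on RD and 140, 145 and 138 CPM on HFD. The HFD libraries lay above the RD libraries, with a log2 fold change of 0.33 ± 0.11 (SE) that did not pass the adjustment by edgeR (adjusted p = 0.413). In males Ciita was 93.3, 152 and 116 CPM on RD and 122, 75.5 and 98.0 CPM on HFD, with overlap and a log2 difference of −0.32 ± 0.21 (adjusted p = 0.917). H2-Oa in LC-like cells of males was 3.48, 3.76 and 7.75 CPM on RD and 12.7, 8.29 and 6.73 CPM on HFD, on 7 to 12 UMIs per library, and did not pass (log2 0.93 ± 0.42, adjusted p = 0.896). H2-Ob there was 2.48, 4.23 and 4.85 CPM on RD against 10.6, 6.78 and 9.43 CPM on HFD, without overlap, on 5 to 14 UMIs per library and too few for the fit.

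In cycling cells 0 of 8 members were called in either sex, beside 0% of 5550 genes in males and 0% of 7701 in females, with 210 and 420 genes at an unadjusted p under 0.05. All 8 members had a fold change above 1 in both sexes, with a median of 0.45 in males and 0.13 in females on the log2 scale, beside 50.7% and 48.9% of all genes. Keratin-high cells were 90 of 199 cycling cells on RD and 44 of 124 on HFD in males, and 64 of 202 and 76 of 262 in females. With low-keratin cells only, 8 of 8 members stood above 1 in males with a median of 0.16, and 2 of 8 in females with a median of −0.08. In Ccr7-positive cells of females 0 of 8 were called, beside 0% of 3459 genes (169 at an unadjusted p under 0.05), although H2-DMb1 did not overlap between the diets (260 to 323 CPM on RD and 357 to 551 CPM on HFD, log2 0.58 ± 0.22, adjusted p = 0.995). In chemokine-high cells, with the minimum lowered to 5 cells after the cell numbers were seen, 0 of 6 members were called in males, beside 2.17% of 508 genes, and 0 of 7 in females, beside 1.67% of 1136 genes. Cd74 was 21768, 21907 and 23047 CPM on RD and 30453, 28559 and 27806 CPM on HFD in those male cells (log2 0.43 ± 0.13, adjusted p = 0.192 by edgeR), on 7 to 11 cells a library. The HFD libraries lay above the RD libraries without overlap. The share of all genes without overlap in these cells is not given, so this and the non-overlaps below are descriptions with no test. In females Cd74 overlapped between the diets. H2-DMa was higher on HFD without overlap in both sexes. It was at 1455 to 1631 against 1835 to 2176 CPM in males and 660 to 920 against 995 to 1365 CPM in females. H2-DMb1 and H2-Ab1 in females and H2-DMb2 and H2-Aa in males also lay higher without overlap. Keratin-high cells were 1 in each male RD library, 2, 3 and 3 in the female RD libraries and 0 in every HFD library. Low-keratin cells held 39407 of 50073, 25140 of 35058 and 38866 of 55192 UMIs of this state in male RD libraries. In female RD libraries they held 62252 of 98884, 57109 of 93147 and 41240 of 74233. The part of keratinocyte transcripts in these differences was not tested.

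In keratinocytes the members, most of them near background, were not called either: 0 of 6 in males, beside 0% of 15054 genes (1369 at an unadjusted p under 0.05, and 194 by DESeq2), and 0 of 8 in females, beside 3.4% of 17724 genes. That share rested on 603 genes, and 2 to 915 were called with each library left out. The log2 fold change was above 0 for 0 of 6 members in males (median −0.34) and for 7 of 8 in females (median 0.45), beside 47.2% and 51.5% of all genes. H2-Aa in male keratinocytes was 1.83, 2.47 and 1.80 CPM on RD and 1.06, 1.69 and 1.18 CPM on HFD, without overlap and with an adjusted p of 0.479 by edgeR, and H2-Eb1 and H2-DMa were also lower on HFD without overlap there. H2-DMb1 in female keratinocytes was 0.520, 0.297 and 0.429 CPM on RD and 0.660, 0.677 and 0.679 CPM on HFD, also without overlap and with an adjusted p of 0.136. Cd74, Cd207 and Tyrobp were all at their highest in female keratinocytes in HFD replicate 1, at 10.3, 2.00 and 0.679 CPM. Without female HFD replicate 2, H2-DMb2 alone was called in female keratinocytes (log2 1.53, adjusted p = 0.0401), at no more than 0.205 CPM in any library.

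The effect of diet did not differ detectably between the sexes for any member. The interaction of diet and sex in LC-like cells was called for 0 of 10 members and 0% of 10610 genes, while an unadjusted p fell under 0.05 for 596 genes and DESeq2 called 0. It was 0.13 ± 0.23 for Cd74 (SE, log2, male minus female effect, 95% interval −0.35 to 0.62) and 0.07 ± 0.23 for H2-DMa. The largest was that of H2-Ob, 1.00 ± 0.51 (adjusted p = 0.919 by edgeR).

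**Figure D5:**
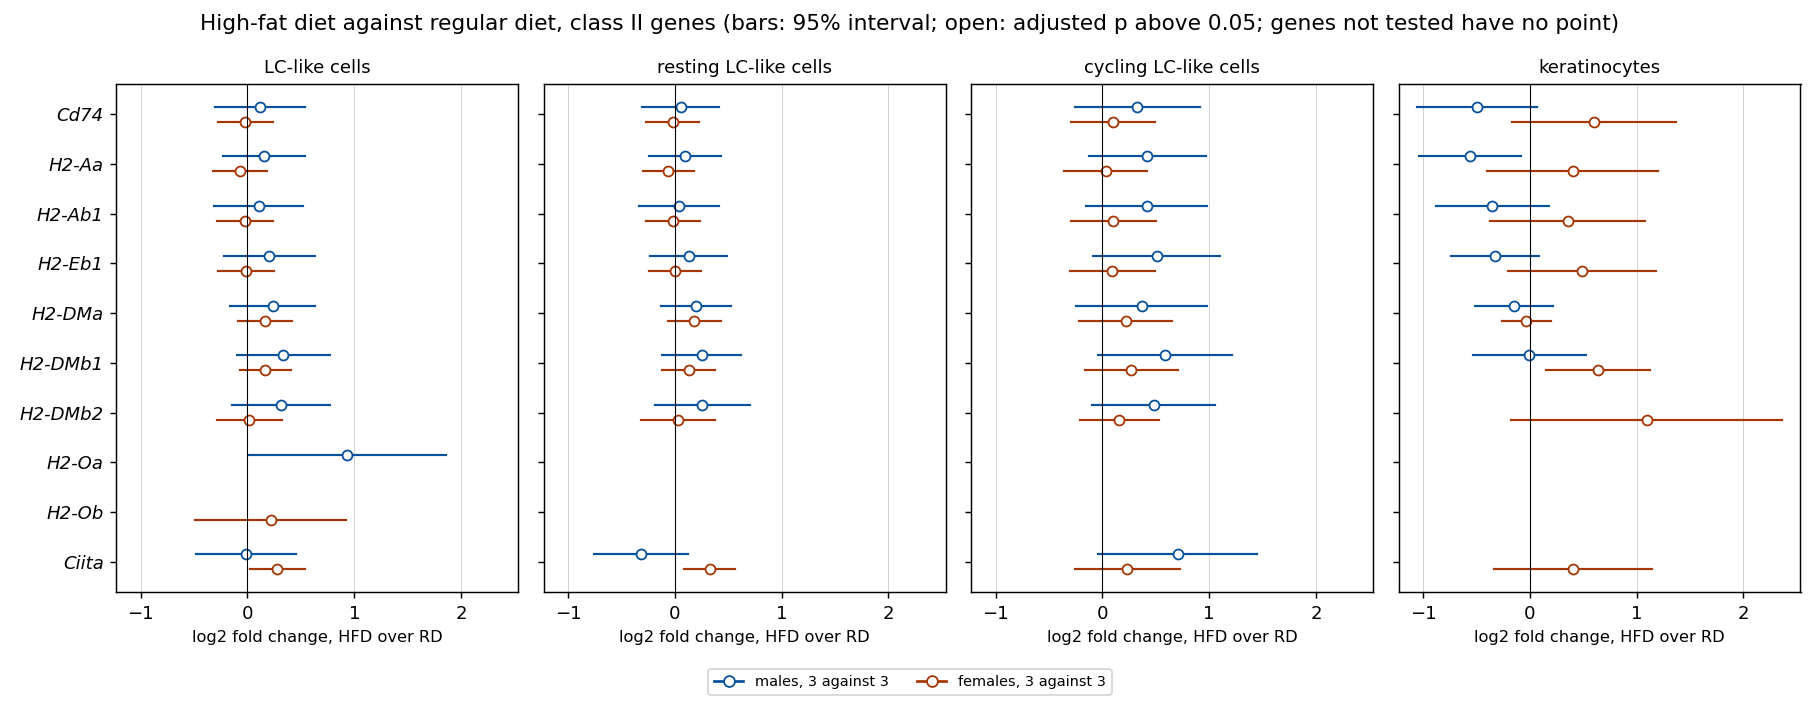
Log2 fold change of each member between HFD and RD with 95% intervals from edgeR, in LC-like cells, resting and cycling LC-like cells and keratinocytes, for each sex with 3 mice against 3. All points are open, which marks an adjusted p above 0.05, and most intervals span 0.

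The partners of MHC II were read from a list of proteases, transcription factors, interferon-gamma signalling genes, costimulatory genes and invariant chain ligands. In cycling against resting cells 13 of 28 list genes tested were called in males, 12 of them lower, beside 18.3% of all genes called in either direction. Ctss, the protease that trims the invariant chain, fell by 0.93, Spi1 by 0.67, the lysosomal thiol reductase Ifi30 by 0.60, Irf8 by 0.67 and Irf4 by 0.77 on the log2 scale. In females 4 of 32 were called, a share near the 12.4% of all genes: Ctss fell by 0.57, Ifi30 by 0.46 and Spi1 by 0.40, and Mif, a ligand of the invariant chain protein, rose by 0.40. With low-keratin cells 1 of 24 was called in males (Ctss, −0.33) and 4 of 29 in females, with Ctss at −0.27, beside 5.99% and 3.75% of all genes.

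In Ccr7-positive cells of females all 5 list genes called, of 30 tested, were higher than in resting cells, beside 4.9% of all genes called and 3.21% called higher: Cxcr4, which pairs with the CD74 protein as a receptor, by 2.15, the costimulatory receptor Cd40 by 1.82, Irf8 by 1.52, Jak2 by 0.87 and the costimulatory ligand Cd80 by 0.77 (log2). In males Cd40 was the 1 gene called of 25, at 1.72, beside 1.83% of all genes. In chemokine-high cells Irf1 rose by 2.11 in females (1 of 28, beside 1.41% of all genes) and 0 of 26 were called in males. No list gene was called by diet in any class or by the interaction.

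Among all genes with a mean of at least 50 CPM in LC-like cells, those whose level followed the mean of H2-Aa, H2-Ab1, H2-Eb1 and Cd74 most closely were Tyrobp (Pearson's r = 0.971), Vim (0.968), Ctss (0.958), Napsa (0.944) and AY036118 (0.929). The profiles were the 36 sums of a library and state with at least 10 cells, centred within each library, and 3043 genes were compared. Of the members outside that mean, H2-DMa followed it at 0.906, H2-DMb1 at 0.832, H2-DMb2 at 0.814 and Ciita at 0.333. The points share libraries, depth and keratinocyte transcripts, and the values are a description.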

How the data were processed

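Single-cell RNA-seq libraries (10x Genomics 3′ v3.1 chemistry) of 12 mice were analysed from the count matrices the authors deposited, which hold raw UMI counts per gene and cell barcode. The submitters' processing notes name Cell Ranger 7.2.0, Seurat 5.0.0 and GRCm38 (mm10), and the matrix headers give Cell Ranger 6.1.0 for males and 7.2.0 for females. Whether introns were counted is not given in the sources used here.

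The study's limits on cells were applied: the smallest number of genes allowed was 200 for males and 500 for females, the largest was 6000 in both, and barcodes with over 5% mitochondrial UMIs were dropped. Within each sex, 2000 variable genes without the members were reduced to 10 principal components and clustered with leidenalg 0.10.2. A cluster was named from fixed markers where at least 3 of them passed. UMI counts were summed per library and class and tested in R 4.3.3 with edgeR 4.0.16 (TMM, filterByExpr, quasi-likelihood test, Benjamini-Hochberg adjustment over all genes tested, threshold 0.05). A test of diet needed at least 10 cells in each library, and a test of states took the libraries with at least 10 cells of both states, or 5 where stated. HFD was tested against RD within each sex, and states against resting cells with the library as a block. Levels (CPM) are UMIs of a gene per 1000000 UMIs of the class. Where diet groups are said not to overlap in CPM, or per Cd74 UMI outside resting cells, the share of all genes without overlap is not given. Such statements are descriptions with no test. P-values of the diet tests measure the spread between mice, and those of the state tests the spread of the difference within mice. Both include counting error, which weighs more for genes with few UMIs. The scripts were checked on simulated counts with known changes. The 10 members were all reported, and partners were named by the 5 smallest adjusted p among those that passed. Alternatives were DESeq2 1.42.0 with its size factors, no filter on low counts, a replicate block, each library left out, low-keratin cells, a marker gate in place of clusters, clustering with the members, and other state thresholds. The members and lists were chosen with earlier results of these data known. Samples carry only GEO group labels, and no other cell annotation was used.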

Additional observations from a re-analysis of the deposited data

How the results depend on the processing

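No alternative gave the opposite direction to a reported value where either of them was called. Of 1207 member values recomputed, 1156 kept their side of the threshold and either kept their direction or changed sign by no more than 1 SE, 20 lost a call, 9 gained one, and 22 changed sign by over 1 SE without a call on either side, among them Ciita in cycling against resting cells of males (−0.32, and 0.32 in low-keratin cells). With at least 2 UMIs required for the cycling and Ccr7-positive states, Ciita was called lower there (−0.74). In Ccr7-positive against resting cells of females 3 members were called, against 6 with no filter on low counts, 4 in low-keratin cells, 0 without cells that met more than 1 criterion, and 1 to 3 with each library left out (1 without female RD replicate 1). In males, on libraries with at least 5 cells, 5 were called, and 1 to 6 with each library left out. The cause was not tested. By diet in female keratinocytes 0 members were called, and 0 to 1 with each library left out (H2-DMb2, without female HFD replicate 2). Cd74 in male keratinocytes, 0.0167% of the LC-like level, stood at 0.00846% without cells that held Cd207, Mfge8, Tyrobp or Fcer1g, a filter that also removed cells for Mfge8, which basal keratinocytes held, and at 0.00820% without cells that held Cd207, Tyrobp or Fcer1g. Counts over all genes varied more than those of the members. By diet, 603 genes were called in female keratinocytes (2 to 1534 over the alternatives, 2 to 915 with each library left out, 1534 by DESeq2). In females, 6 were called in LC-like (0 to 269) and 12 in resting cells (0 to 217). In males, 0 were called in keratinocytes (0 to 194), LC-like (0 to 68) and resting cells (0 to 54), and 0 for the interaction (0 to 64). Between states, 1404 genes in males (285 to 1734) and 1288 in females (301 to 2337) were called in cycling cells, 62 (17 to 279) and 113 (17 to 152) in chemokine-high cells and 445 (211 to 672) in Ccr7-positive cells of females, and 97 (16 to 183) in those of males. Replicate numbers are shared between the diets, and the labels do not say whether they pair the mice. Correlations of same-numbered LC-like deviations were −0.247, 0.167 and −0.167 in males and −0.190, −0.111 and 0.0677 in females. Those of keratinocytes were 0.0445, 0.113 and 0.143 in males, each highest with its own number, a hint from the data and not the design. In females they were −0.107, −0.113 and 0.0548. With 3 libraries a group these values cannot settle whether the mice were paired. Not every pair was above 0.1 in any class. With the replicate block 0 members were called in each of the 7 fits, and 1 gene in male and 3 in female keratinocytes. The minimum of 5 cells with its low-keratin and left-out fits, the low-keratin cells of diet fits in cycling and Ccr7-positive cells, the keratinocyte filter without Mfge8 and the ratio to Cd74 were chosen after seeing the data. Diet in Ccr7-positive cells of males was not run, with as few as 2 cells in a library, nor diet in chemokine-high cells with at least 10. Few cells per mouse limit the rare states, and 3 mice a group limit the tests of diet.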

Other observations

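The costimulatory genes, which act beside MHC II when a T cell is engaged, were at very different levels in the libraries of the 2 sexes. They were chosen after their values were seen. Cd86 was at 154.7 to 258.8 CPM in male and 884.0 to 1585 CPM in female LC-like cells, and Cd80 at 45.1 to 63.0 and 139.2 to 302.8 CPM, so that the sexes did not overlap for either gene. Cd40 lay at 39.0 to 84.3 and 58.4 to 103.2 CPM, with overlap. Sex and the counting software version cannot be told apart in these values. H2-Eb2, a second beta chain gene next to H2-Eb1, was at 1.06 to 7.41 CPM in male and 6.06 to 10.7 CPM in female LC-like cells (H2-Oa and H2-Ob: at most 12.7 and 10.6 CPM in males, and 4.02 and 5.23 CPM in females).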
